A study of Homo sapiens with 8 samples.

Results

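The comparison described here sets LNCaP cells after 24 h with recombinant human asporin (ASPN) against LNCaP cells at time 0, and it takes in 5 of the 8 libraries of the series, 2 at time 0 and 3 at 24 h. Members were chosen by the labelled time alone, and every gene of the table was a candidate: of 36474 genes, 21071 passed the low-count filter and were tested, and 15403 were not. LNCaP is an established line from a metastatic human prostate carcinoma, and ASPN is a secreted small leucine-rich proteoglycan of the extracellular matrix. All libraries carry the ASPN label, including those of time 0; cells were kept for 6 to 12 h in medium free of serum and calcium, ASPN was given at 100 ng/mL, and RNA was taken after 0, 12 or 24 h. No library kept in that medium for 24 h without ASPN was analysed here, so ASPN and a further day without serum and calcium cannot be told apart in any value below. The labels call the libraries biological replicates and the wells were plated in triplicate, but the sources used here do not say whether these were separate cultures, so the p-values measure the spread between these libraries, which may be technical.

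As background, secreted and membrane proteins fold in the endoplasmic reticulum (ER), and unfolded proteins or calcium loss there switch on the unfolded protein response, which raises chaperones, degradation factors and the vesicle coats that carry cargo onward. The integrated stress response acts through the transcription factor ATF4 on amino acid supply and tRNA charging. Entry into S phase is driven by E2F factors, which act on the genes that load and fire replication origins. Mitotic genes are switched on later in the cycle through complexes that contain MuvB.

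The libraries held 73406825 to 96962135 counts, and levels are given as CPM, the counts relative to the TMM-scaled library size. The coefficient of variation between replicates was 5.59%. Time-0 replicate 1 stood apart in its dependence on GC content. Among genes of at least 1 CPM per kilobase of exon, its median log2 distance from the mean of all 8 libraries was 0.118 in the lowest quintile by GC content and -0.1174 in the highest, against 0.0124 and -0.039 for the other time-0 library and -0.0303 to 0.0365 for the 3 libraries at 24 h. Of the 12 h libraries, which enter the fit but not this comparison, replicate 1 lay nearly as far out on the other side, at -0.1094 and 0.0757. Its part and that of time-0 replicate 1 in the results were not tested. The counts over all genes, over lncRNAs and over each gene list are given with and without time-0 replicate 1, and for a list also without any other library that moved a count by over 1.5 times and by at least 2 genes. LNCaP cells were recognisable in every library, with 10 of 10 luminal prostate markers over 1 CPM and a summed level of 5260 to 5350 CPM at time 0 and 5820 to 6010 CPM at 24 h. None of the basal or immune markers in the table reached 1 CPM. Fibroblast markers summed to 22.3 to 22.7 CPM at time 0 and 21.2 to 21.9 CPM at 24 h, nearly all of it COL1A1. Of ASPN itself, the transcript had at most 3 counts in any library, and it was not tested.

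A set of 10 promoter windows shows well-known sequence elements of groups whose genes moved together here. The genes, the element marked in each and the stretch printed were picked by hand, so a match in all 10 windows follows from the choice. Any part of the elements in the changes was not tested. The windows are RefSeq sequences of the GRCh38.p14 build, printed 5′ to 3′ on the strand of the gene. Capitals mark the matched element on either strand. HSPA5 and HSP90B1 encode the most abundant ER chaperones and carry the ER stress element, spelled CCAAT, any 9 bases, CCACG.
HSPA5 (chr9:125241374-125241473, minus strand): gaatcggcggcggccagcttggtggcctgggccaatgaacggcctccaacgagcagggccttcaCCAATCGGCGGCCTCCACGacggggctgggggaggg
HSP90B1 (chr12:103930210-103930349, plus strand): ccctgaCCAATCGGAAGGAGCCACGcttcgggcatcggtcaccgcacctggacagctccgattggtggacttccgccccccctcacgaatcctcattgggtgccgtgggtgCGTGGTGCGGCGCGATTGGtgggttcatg
HYOU1, an ER nucleotide exchange factor, and HERPUD1, a membrane component of ER-associated degradation, carry the shorter ER stress element II, ATTGG, any base, CCACG.
HYOU1 (chr11:119057266-119057400, minus strand): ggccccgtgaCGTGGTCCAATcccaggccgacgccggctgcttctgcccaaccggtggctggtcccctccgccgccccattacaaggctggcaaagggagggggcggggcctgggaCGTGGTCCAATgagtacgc
HERPUD1 (chr16:56931992-56932071, plus strand): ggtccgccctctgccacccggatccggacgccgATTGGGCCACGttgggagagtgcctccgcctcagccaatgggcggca
ASNS (asparagine synthetase) and CHAC1 (a glutathione-degrading enzyme) carry the core of the C/EBP-ATF composite element bound by ATF4, TGATGNAA.
ASNS (chr7:97872439-97872518, minus strand): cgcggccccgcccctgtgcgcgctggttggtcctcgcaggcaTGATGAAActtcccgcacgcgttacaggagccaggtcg
CHAC1 (chr15:40953231-40953300, plus strand): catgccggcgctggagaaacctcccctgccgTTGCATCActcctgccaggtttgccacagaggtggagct
MCM6, a subunit of the replicative helicase, and GINS2, which activates that helicase, carry E2F elements spelled TTTGGCGC and TTTCCCGC.
MCM6 (chr2:135876514-135876603, minus strand): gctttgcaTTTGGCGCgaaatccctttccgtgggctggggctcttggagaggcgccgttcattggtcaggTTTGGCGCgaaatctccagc
GINS2 (chr16:85688955-85689034, minus strand): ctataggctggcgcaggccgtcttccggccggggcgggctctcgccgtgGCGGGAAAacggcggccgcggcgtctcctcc
CENPA, the centromeric histone, and KIF18A, a mitotic kinesin, carry a CCAAT box and the cell cycle homology region, TTTGAA.
CENPA (chr2:26785916-26786055, plus strand): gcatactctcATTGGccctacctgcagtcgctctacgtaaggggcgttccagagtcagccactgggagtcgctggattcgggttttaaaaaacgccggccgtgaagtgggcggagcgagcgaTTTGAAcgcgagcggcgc
KIF18A (chr11:28108157-28108236, minus strand): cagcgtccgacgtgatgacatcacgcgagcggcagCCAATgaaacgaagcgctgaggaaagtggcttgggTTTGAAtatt

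Each motif was counted on both strands in the 250 bases before the first listed start of 12469 tested genes with a RefSeq window. A match describes letters only, not binding. The ER stress element lay in 0.128% of all windows and in 6 of 23 windows (26.1%) of the ER chaperone list (CALR, CANX, CRELD2, ERO1B, HSP90B1 and HSPA5). In the degradation list it lay in 0 of 14 windows. ER stress element II lay in 0.0882% of all windows, in HYOU1 and SDF2L1 among the chaperones, and in HERPUD1 among 14 degradation genes. Both contain a CCAAT box and so overlap that motif. The ATF4 core lay in 1.49% of all windows, in 3 of 23 stress regulators (ATF3, CHAC1 and PPP1R15B), in 3 of 11 serine, one-carbon and asparagine genes (ASNS, GOT1 and MTHFD1L), in 2 of 16 cytosolic tRNA synthetases (AARS1 and IARS1) and in none of 15 amino acid transporters. Counted over every listed start, it lay in 2.43% of all genes, 4 of 23 regulators, 3 of 16 synthetases and 1 of 15 transporters. TTTCCCGC was present in 2.17% of all windows and in 5 of 21 windows of the licensing list (CDT1, GINS2, MCM3, MCM7 and ORC3), and TTTGGCGC in 0.802% of all and in 1 of 21 (MCM6). Mitotic genes held the CCAAT box in 33 of 45 windows (73.3%, against 34.8% of all) and TTTGAA in 21 of 45 (46.7%, against 8.73%). The CCAAT box was as frequent in the ER chaperone list, at 18 of 23 windows (78.3%).

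After 24 h the response was broad and mostly small. A gene is said to have changed, risen or fallen where its adjusted p was at most 0.05 in edgeR's quasi-likelihood F test, and to have been called where its fold change was also at least 1.5. In all 3437 genes changed, 16.3% of those tested, with 1648 higher (7.82%) and 1789 lower (8.49%). Of these, 2921 (85.0%) moved by less than 1.5-fold, and 516 genes (2.45%) were called, 232 higher (1.1%) and 284 lower (1.35%). A fold of at least 2 was reached by 185 called genes. The 2 groups did not overlap for 9095 genes (43.2%). The median log2 difference over all tested genes was -0.0031, and the median size was 0.17 on the log2 scale. Changed genes that fell lost 36500 CPM between them, whereas those that rose gained 19600 CPM. Leaving out time-0 replicate 1 reduced the changed genes to 1597 and the called genes to 120 higher and 145 lower. Against the same time-0 libraries, 2443 genes (11.6%) had changed at 12 h.

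**Figure D1:**
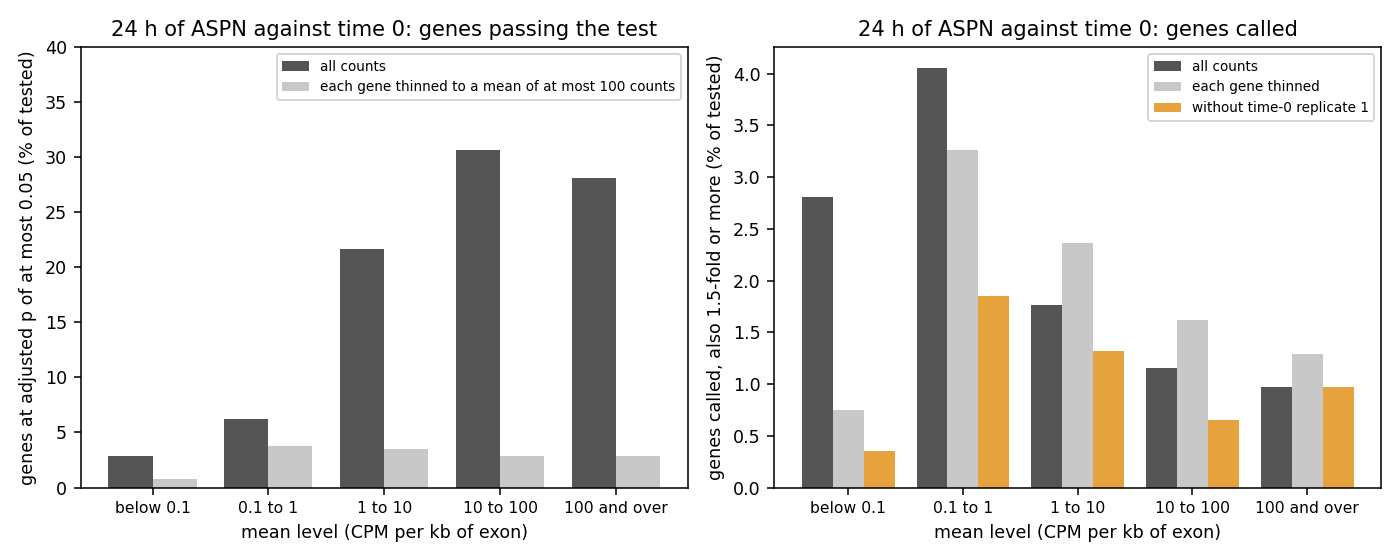
Bars give the share of tested genes in each abundance class (mean CPM per kilobase of exon, horizontal axis) that changed (left, vertical axis in percent) or were called (right, in percent) between 24 h of ASPN and time 0, from all counts, with each gene thinned to a mean of at most 100 counts, and (right) without time-0 replicate 1. The share that changed rises from 2.85% to 30.7% with all counts and lies between 2.85% and 3.75% in the 4 upper classes once thinned, whereas the called share has its highest value, 4.05%, between 0.1 and 1.

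Genes were placed in 5 classes by their level, the mean CPM per kilobase of merged exons over the 8 libraries. The share of genes that changed rose with level, from 2.85% of 2949 genes under 0.1 to 6.24% of 6102 genes between 0.1 and 1, 21.7% of 7889 between 1 and 10, 30.7% of 3821 between 10 and 100 and 28.1% of 310 genes at 100 or over. The called share had its highest value lower down, at 4.05% between 0.1 and 1, and was 2.81% under 0.1, 1.76% between 1 and 10, 1.15% between 10 and 100 and 0.968% at 100 or over. The sizes behind these shares differed: the median size of a called difference was 1.975 on the log2 scale in the lowest class and 0.666 between 10 and 100, and 74 of the 83 called genes under 0.1 had moved at least 2-fold, against 1 of 44 between 10 and 100. Depth moved with the classes, since the median gene had 13 counts per library in the lowest and 50300 in the highest. The median spread at 24 h was 41.0% in the lowest class and 2.42% between 10 and 100. Only large folds can pass the test in the lowest class, so the sizes of called differences cannot be told apart from depth. When each gene was thinned to a mean of at most 100 counts, the share that changed was 3.75%, 3.5%, 2.85% and 2.9% in the 4 classes from 0.1 upwards and 0.78% under 0.1. Thinning sets a ceiling and does not make depth equal, as the median gene between 0.1 and 1 had 48.6 counts per library before it.

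Direction also differed between classes. Called genes were nearly balanced under 10 CPM per kilobase, at 40 higher and 43 lower, 120 and 127, and 65 and 74 in the 3 lowest classes. Between 10 and 100 there were 7 higher and 37 lower, and at 100 or over 0 higher and 3 lower, the 3 being HSPA5, HYOU1 and MANF, a secreted ER stress factor. Without time-0 replicate 1 the called genes were 2 higher and 23 lower between 10 and 100, and 0 and 3 at 100 or over, so the excess of falling genes at high level was present with and without that library. Under 0.1 the called share was 0.356% without it and 1.83% without the other time-0 library.

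**Figure D2:**
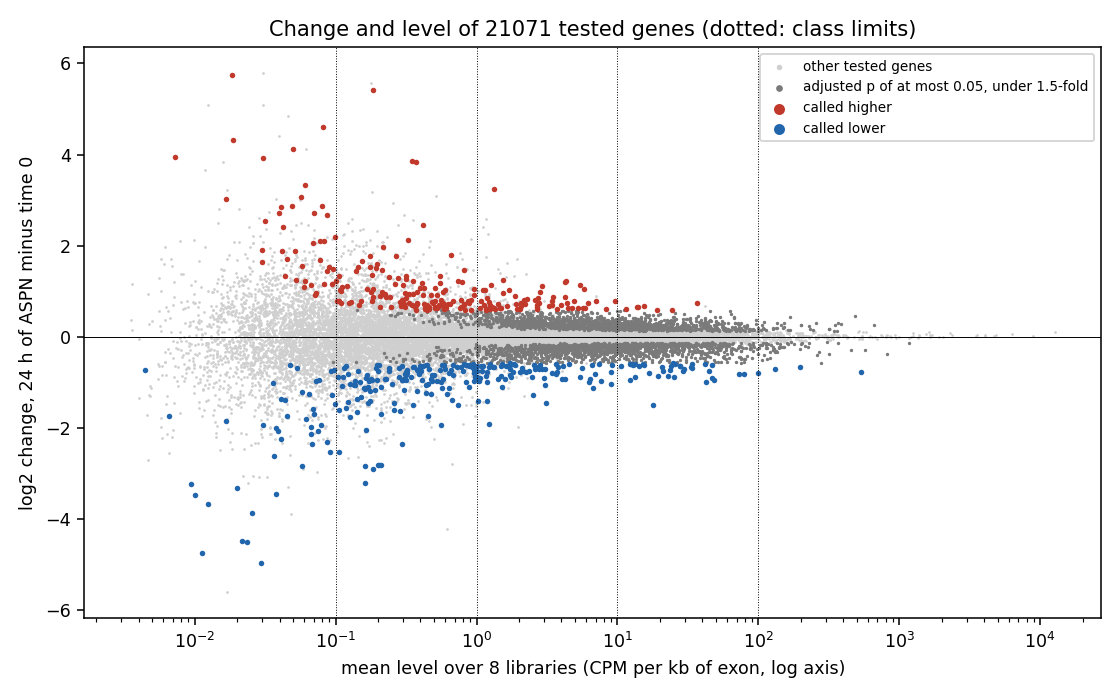
Each point is 1 of the 21071 tested genes, with its mean level over the 8 libraries on the horizontal axis (CPM per kilobase of exon, log axis) and its log2 difference between 24 h and time 0 on the vertical axis. Called genes (red higher, blue lower) lie far from 0 among scarce transcripts, and of the 44 called genes between 10 and 100, 37 are blue.

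At the top of the range the changes of single genes were small in fold and large in transcripts. HSPA5, the ER chaperone BiP (chr9:125234853-125241382), stood at 4725 and 4467 CPM at time 0 and 2526, 2786 and 2796 CPM at 24 h (log2 -0.77 ± 0.04, adjusted p = 1.2e-13), the SE following the ± sign here and in what follows. HYOU1 (chr11:119044188-119057227) stood at 1193 and 1176 CPM at time 0 and 687, 749 and 725 CPM at 24 h (log2 -0.72 ± 0.04, adjusted p = 2.0e-13). HSP90B1, PDIA4 and GDF15, a stress-induced cytokine, made up the rest of the 5 largest losses, with 4260.1 and 3804 CPM against 2886, 3134 and 3107 CPM for HSP90B1, 1172 and 1095 against 725, 783 and 777 CPM for PDIA4 and 2022 and 1932 against 1467, 1495 and 1565 CPM for GDF15. The 5 largest gains were ENO1, HSP90AA1, FADS2, CKB and KLK3, of which none reached 1.5-fold. CKB, brain-type creatine kinase, stood at 891 and 929 CPM at time 0 and 1242, 1218 and 1258 CPM at 24 h (log2 0.45 ± 0.04, adjusted p = 7.1e-09). ENO1, the glycolytic enolase, stood at 2978 and 2932 CPM at time 0 and 3502, 3368 and 3668 CPM at 24 h (log2 0.25 ± 0.04, adjusted p = 3.6e-05), and FADS2, a fatty acid desaturase, at 1808 and 1858 CPM at time 0 and 2195, 2186 and 2213 CPM at 24 h (log2 0.26 ± 0.04, adjusted p = 9.5e-06). KLK3, which encodes prostate-specific antigen, stood at 912 and 1018 CPM at time 0 and 1183, 1132 and 1267 CPM at 24 h (log2 0.31 ± 0.05, adjusted p = 1.7e-05). In none of these 10 genes did a 24 h library overlap a time-0 library, but they were picked for their large differences. The groups did not overlap for 63.0% of the 2053 tested genes at 100 CPM or over.

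Between 10 and 100 CPM per kilobase the 2 largest rises were those of MT1G and PITX1 and the 2 largest falls those of SLC39A10 and DDIT3. MT1G, a metallothionein that binds zinc and copper (chr16:56666730-56668065), stood at 19.2 and 17.6 CPM at time 0 and 34.9, 29.2 and 28.5 CPM at 24 h (log2 0.75 ± 0.08, adjusted p = 1.0e-08). PITX1, a homeobox factor (chr5:135027734-135034813), stood at 38.1 and 40.6 CPM at time 0 and 65.7, 64.0 and 58.6 CPM at 24 h (log2 0.68 ± 0.06, adjusted p = 2.4e-10). SLC39A10, a plasma membrane zinc importer (chr2:195575977-195737702), stood at 241 and 224 CPM at time 0 and 66.4, 96.3 and 82.6 CPM at 24 h (log2 -1.51 ± 0.15, adjusted p = 0.0015), with 24 h libraries that ranged from 66.4 to 96.3 CPM. DDIT3, the stress-induced factor CHOP, stood at 81.8 and 75.7 CPM at time 0 and 38.5, 41.3 and 38.6 CPM at 24 h (log2 -0.996 ± 0.06, adjusted p = 2.3e-13). At 12 h the log2 differences from time 0 were 0.71 ± 0.08 for MT1G, 0.43 ± 0.06 for PITX1, -1.28 ± 0.15 for SLC39A10 and -0.47 ± 0.06 for DDIT3. TGM1, a transglutaminase of the epidermal barrier, and the antisense transcript DDX59-AS1 had the largest falls between 1 and 10, TGM1 from 7.30 and 5.71 CPM at time 0 to 2.12, 2.44 and 2.86 CPM at 24 h (log2 -1.40 ± 0.15) and DDX59-AS1 from 2.12 and 1.82 to 0.527, 0.558 and 0.463 CPM (log2 -1.93 ± 0.25). The largest rises of that class belonged to the short loci RNA5SP460 and Metazoa_SRP, which had under 1 CPM in every library of this comparison and whose calls did not hold. RNA5SP460 had an adjusted p of 0.017, which became 0.207 without time-0 replicate 1, 0.051 without the other time-0 library and 0.0591 without 24 h replicate 3. Metazoa_SRP had an adjusted p of 0.041, which became 0.333 without time-0 replicate 1, 0.0636 without the other time-0 library, 0.183 without 24 h replicate 1 and 0.0562 without 24 h replicate 3, and 0.073 with the column number as a block.

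The largest folds lay among scarce transcripts. Between 0.1 and 1, ADRA2C, the alpha-2C adrenergic receptor (chr4:3766348-3768526), stood at 0.738 and 0.509 CPM at time 0 and 2.31, 1.88 and 2.33 CPM at 24 h (log2 1.78 ± 0.23, adjusted p = 1.0e-06), and DGCR6, a gene of the DiGeorge region, at 0.295 and 0.550 CPM at time 0 and 1.43, 1.27 and 1.59 CPM at 24 h (log2 1.77 ± 0.34, adjusted p = 0.00034). DGCR6 shares 17.4% of its 100-base windows with other genes, so its counts may hold reads of a copy. ANGPTL2, a secreted angiopoietin-like protein (chr9:127087348-127122635), stood at 1.59 and 1.51 CPM at time 0 and 0.275, 0.0931 and 0.286 CPM at 24 h (log2 -2.85 ± 0.35, adjusted p = 3.4e-07), and LINC02485 at 0.806 and 0.536 CPM at time 0 and 0.0659, 0.103 and 0.231 CPM at 24 h (log2 -2.36 ± 0.49, adjusted p = 0.00077), with an adjusted p that became 0.0634 without time-0 replicate 1. Under 0.1, NES, the intermediate filament nestin, had 12 and 11 counts at time 0 and 50, 51 and 59 counts at 24 h, with a log2 difference of 2.11 ± 0.43 and an adjusted p of 0.00055. HFM1, a meiotic helicase, had 1 and 7 counts at time 0 and 39, 36 and 24 counts at 24 h, with a log2 difference of 2.85 ± 0.68 and an adjusted p of 0.0029, which became 0.112 without time-0 replicate 1, and a log2 difference of 4.89 without the other time-0 library. SLC38A4, an amino acid carrier, had 69 and 23 counts at time 0 and 10, 7 and 3 counts at 24 h (log2 -2.85 ± 0.58, adjusted p = 0.00059), and CYP11A1, the first enzyme of steroid synthesis, had 33 and 34 counts at time 0 and 16, 5 and 5 counts at 24 h (log2 -2.07 ± 0.55, adjusted p = 0.0078). Their adjusted p became 0.15 without time-0 replicate 1 for SLC38A4 and 0.0586 without the other time-0 library for CYP11A1. Across all classes, 26 called genes had at most 3 counts in every library at time 0 or in every library at 24 h. Their folds rest on few reads.

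By gene type, protein-coding genes made up most of the response, with 3142 of 14261 changed (22.0%; 1547 higher and 1595 lower) and 366 called (2.57%; 179 higher and 187 lower). Long non-coding RNAs (lncRNAs) changed in 224 of 4402 cases (5.09%), and 112 were called (2.54%). Within 1 to 10 CPM per kilobase the changed shares were 11.9% for lncRNAs and 25% for protein-coding genes, and the called shares 3.11% and 1.58%. Falling lncRNAs outnumbered rising ones, at 151 against 73 changed and 75 against 37 called, and the median over all 4402 was -0.0331. Without time-0 replicate 1, 48 lncRNAs fell and 18 rose. The called lncRNAs were then 24 lower and 8 higher, and 65 lower and 38 higher without the other time-0 library. Processed pseudogenes changed in 15 of 1061 cases and transcribed unprocessed pseudogenes in 24 of 379 (7 higher and 17 lower). None of the 42 small nuclear RNAs and 1 of the 59 microRNA loci changed in edgeR's test, and libraries of polyadenylated RNA hold such short transcripts only in part.

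Because the strand option of the counting is not stated, lncRNAs were divided by exon overlap. Of 2183 without any overlap, 32 rose and 63 fell. Of 1997 overlapping an opposite-strand gene, 31 rose and 80 fell, and of 200 overlapping a same-strand gene only, 10 rose and 7 fell. Of all tested protein-coding genes 22.0% changed (1547 higher and 1595 lower), and a link between strands was not tested. Among 30 called lncRNAs with a tested protein-coding partner on the opposite strand, the partner had changed in the same direction in 15 and in the other direction in 2. SLC7A11-AS1 and SLC7A11 were such a pair, at log2 -0.93 ± 0.26 and -0.95 ± 0.06, and reads of both strands cannot be told apart there. The adjusted p of SLC7A11-AS1 became 0.178 without time-0 replicate 1 and 0.0835 without 24 h replicate 1. PRKAG2-AS1, antisense to a subunit of the AMP-activated kinase, rose from 0.874 and 0.757 CPM to 2.88, 2.29 and 1.62 CPM (adjusted p = 5.2e-05), while PRKAG2 itself stood at log2 0.085 (adjusted p = 0.514). SEPSECS-AS1 rose from 1.09 and 1.13 CPM to 2.15, 2.37 and 1.88 CPM (adjusted p = 0.0014). LINC01277 fell from 2.19 and 1.62 CPM to 1.09, 1.03 and 0.844 CPM and LINC02846 from 2.07 and 1.69 CPM to 1.24, 0.631 and 1.12 CPM, with adjusted p of 0.0036 and 0.0087 that became 0.176 without time-0 replicate 1 for LINC01277 and 0.179 without time-0 replicate 1 and 0.0726 without 24 h replicate 2 for LINC02846. LINC01311 was the third rising lncRNA of those named by rule (1.09 and 1.40 against 2.69, 1.70 and 1.67 CPM, adjusted p = 0.028), and its adjusted p became 0.343 without time-0 replicate 1 and 0.259 without 24 h replicate 1, and 0.0527 after the GC and length correction. The unprocessed pseudogene MSTO2P fell from 7.07 and 6.42 CPM to 4.30, 5.21 and 4.45 CPM (log2 -0.54 ± 0.11) but shares 70.4% of its windows with MSTO1, and PNMA6B, at log2 0.61 ± 0.18, shares 90.9% with PNMA6A, so neither can be assigned to its own locus. The adjusted p of PNMA6B was 0.017, which became 0.201 without the other time-0 library, 0.0795 without 24 h replicate 1 and 0.0591 without 24 h replicate 3, and 0.057 after the GC and length correction.

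**Figure D3:**
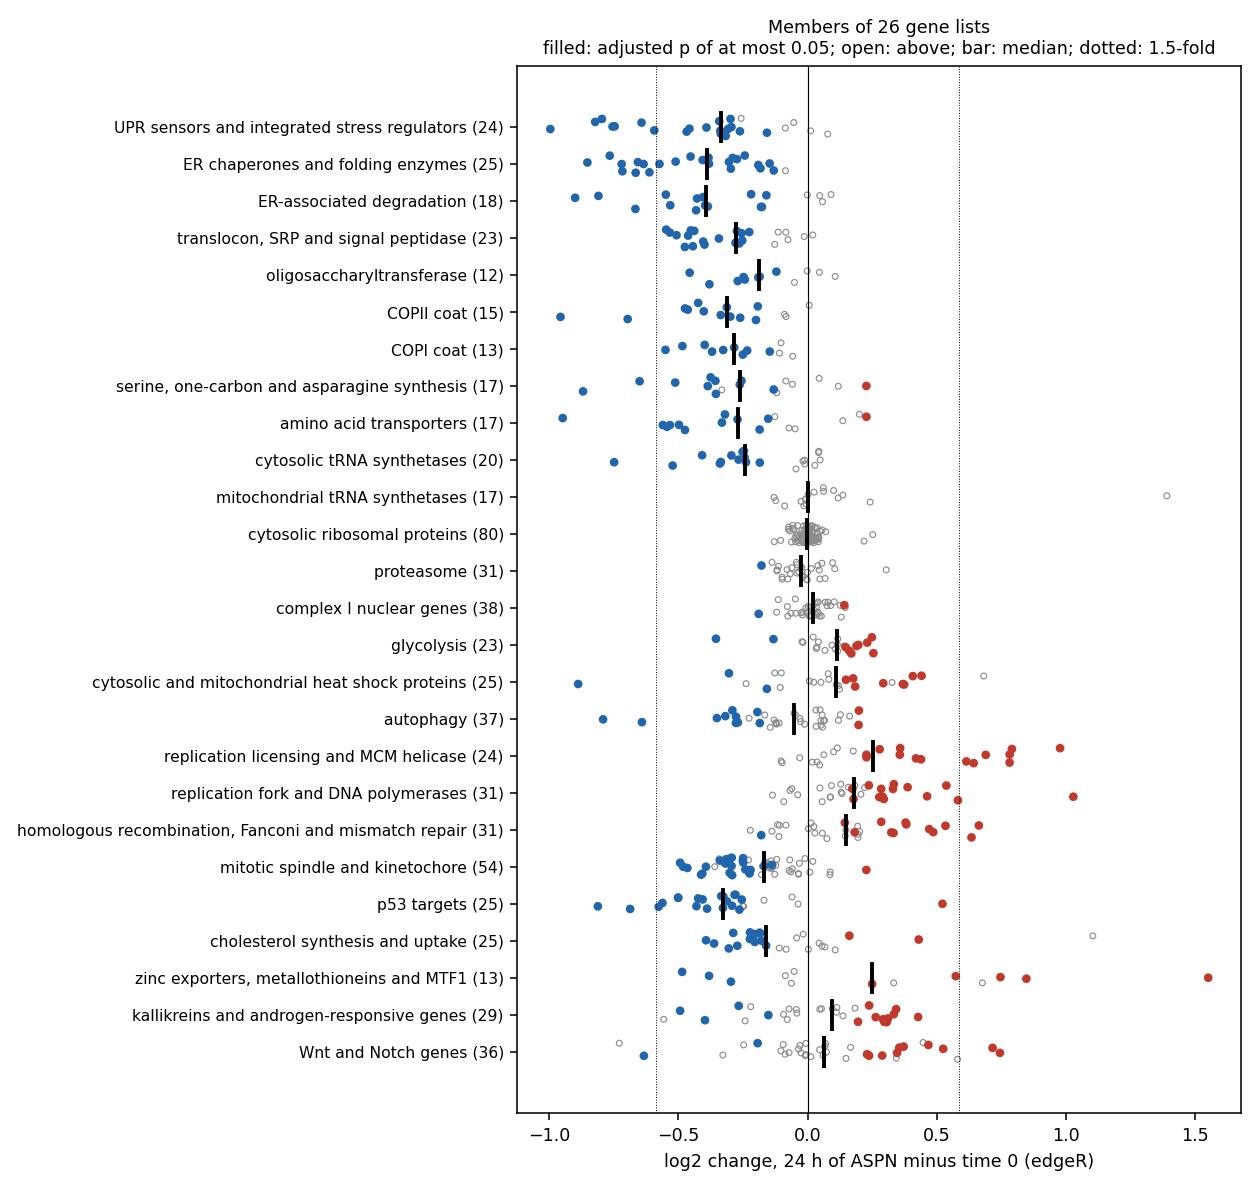
Points are the tested members of 26 lists (number in parentheses), with the log2 difference between 24 h and time 0 on the horizontal axis; filled points changed (blue lower, red higher), open points did not pass, bars are list medians and dotted lines mark 1.5-fold. The 7 secretory lists at the top lie to the left of 0, the cytosolic ribosomal proteins cluster at 0, and the licensing and fork lists lie to the right.

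For the pathways, 72 lists with 1811 tested genes were compared. They hold 58 of the 516 called genes, and 458 called genes are in no list. Over all tested genes 7.82% rose, 8.49% fell and 2.45% were called, to be set beside every list count below. These shares take in scarce genes, which seldom passed. The changed share was 16.3% over all genes, 21.7% between 1 and 10 and 30.7% between 10 and 100 CPM per kilobase. All lists, the 7 secretory ones among them, were drawn up with earlier results of these data known. A share set beside that of all genes thus describes a list and does not test it. In bulk RNA, fewer cells of one kind or phase and less RNA per cell cannot be told apart, and this holds for each list that follows. The secretory pathway fell as a group: of 130 tested genes in 7 lists, 103 fell (79.2%, against 8.49% of all genes, and 89 without time-0 replicate 1), none rose in edgeR's test, and 20 were called. ER chaperones and folding enzymes fell in 24 of 25 cases with 8 called, a median log2 difference of -0.39 and a summed level of 22583 and 21187 CPM at time 0, 18491, 18259 and 18668 CPM at 12 h and 15799, 16930 and 16710 CPM at 24 h. The 12 h sums lay between those of the other times in every library. Without time-0 replicate 1, 19 of the 25 fell, and with a correction for GC content and length the median was -0.34. DNAJB9, a co-chaperone of BiP, stood at 89.2 and 73.5 CPM at time 0 and 40.9, 47.9 and 46.5 CPM at 24 h (log2 -0.85 ± 0.07, adjusted p = 1.2e-09). SDF2L1 was at log2 -0.51 ± 0.05 and CALR, the calcium-binding lectin chaperone calreticulin, only at -0.15 ± 0.04, with an adjusted p of 0.0075 that became 0.0632 without time-0 replicate 1 and 0.07 without 24 h replicate 1.

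ER-associated degradation, which returns misfolded proteins to the cytosol, fell in 14 of 18 genes (3 called, median -0.39). SEL1L, the scaffold of the HRD1 ligase, stood at 678 and 586 CPM at time 0 and 319, 348 and 349 CPM at 24 h (log2 -0.90 ± 0.05, adjusted p = 2.3e-13), and HERPUD1 at 541 and 513 CPM at time 0 and 278, 319 and 305 CPM at 24 h (log2 -0.81 ± 0.05, adjusted p = 1.9e-13). All 3 libraries at 24 h lay below both time-0 libraries for each. The translocon, signal recognition particle and signal peptidase fell in 17 of 23 genes with none called (median -0.28), among them SEC61A1, the pore subunit, at log2 -0.46 ± 0.04. The oligosaccharyltransferase, which attaches N-linked glycans, fell in 8 of 12 genes (median -0.19), with OSTC at log2 -0.46 ± 0.05. COPII coat genes, which form vesicles leaving the ER, fell in 12 of 15 cases (2 called, median -0.31), and COPI genes, which form the vesicles that return, in 9 of 13 (median -0.28). SEC24D, a COPII cargo adaptor (chr4:118722823-118838683), stood at 177 and 164 CPM at time 0 and 81.3, 91.5 and 91.0 CPM at 24 h (log2 -0.96 ± 0.05, adjusted p = 4.5e-14). MIA2, also at ER exit sites, was at log2 -0.70 ± 0.06, and COPB1 at -0.55 ± 0.05. Leaving out time-0 replicate 1 left 11 of 18 degradation, 16 of 23 translocon, 7 of 12 oligosaccharyltransferase, 12 of 15 COPII and 8 of 13 COPI genes lower, and none higher.

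Sensors and regulators of the unfolded protein response and the integrated stress response fell in 19 of 24 cases (7 called, median -0.34), and in 16 without time-0 replicate 1. ERN1, the sensor IRE1, stood at 101 and 93.9 CPM at time 0 and 53.2, 56.4 and 55.5 CPM at 24 h (log2 -0.82 ± 0.06, adjusted p = 4.2e-12), and ATF6, the sensor released to the Golgi, was at log2 -0.32 ± 0.05. XBP1, whose messenger IRE1 splices, was at log2 -0.34 ± 0.05, and ATF4 at -0.30 ± 0.04, from 1349 and 1335 CPM to 1087, 1108 and 1078 CPM. Several members are known ATF4 targets. TRIB3, a pseudokinase, stood at 449 and 419.8 CPM at time 0 and 242, 256 and 253 CPM at 24 h (log2 -0.80 ± 0.06, adjusted p = 9.7e-11), ATF3 at 123 and 106 CPM at time 0 and 65.3, 71.5 and 66.8 CPM at 24 h (log2 -0.76 ± 0.06, adjusted p = 6.2e-11) and CHAC1 at 64.8 and 60.9 CPM at time 0 and 38.4, 42.4 and 39.9 CPM at 24 h (log2 -0.64 ± 0.06, adjusted p = 2.4e-09). NUPR1, a stress-induced chromatin protein, was at log2 -0.34 ± 0.05 and shares 13.1% of its windows with a lncRNA locus. At 12 h the log2 differences from time 0 were -0.47 ± 0.06 for DDIT3, -0.41 ± 0.06 for TRIB3 and -0.51 ± 0.06 for ERN1.

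**Figure D4:**
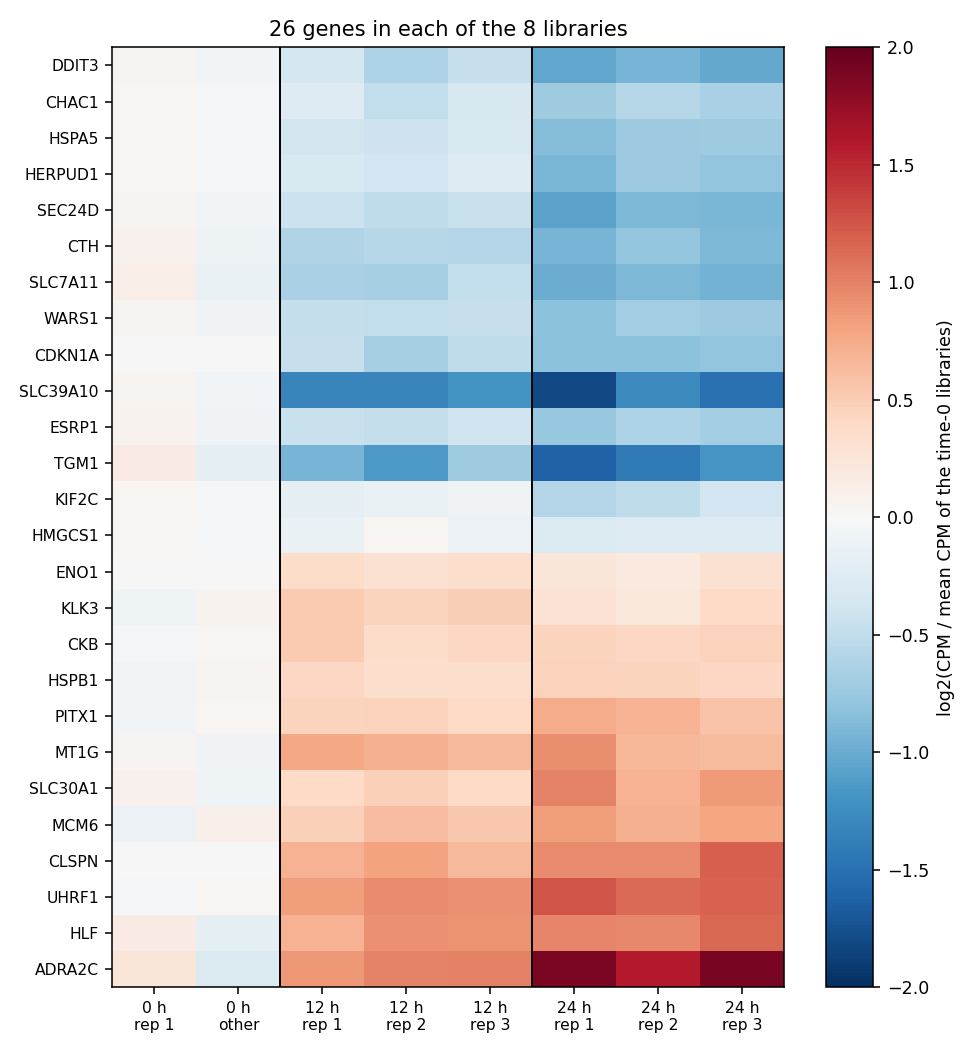
Colours give the log2 ratio of the CPM of each of 26 genes (vertical axis) in each of the 8 libraries (horizontal axis) to the mean CPM of the time-0 libraries, on a scale that ends at -2 and 2. The 3 libraries at 24 h share 1 colour in every gene, and for most genes the 12 h libraries are paler.

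Genes for amino acid supply moved with them. Serine, one-carbon and asparagine synthesis fell in 10 of 17 genes and rose in 1 (2 called, median -0.26, with 0 higher and 10 lower without time-0 replicate 1). CTH, which makes cysteine from cystathionine, stood at 71.0 and 62.4 CPM at time 0 and 35.2, 38.5 and 35.8 CPM at 24 h (log2 -0.87 ± 0.06, adjusted p = 1.5e-12), and MTHFD2, a mitochondrial folate enzyme, at 449.6 and 395 CPM at time 0 and 253, 283 and 270.3 CPM at 24 h (log2 -0.65 ± 0.05, adjusted p = 3.9e-11). PSAT1 was at log2 -0.38 ± 0.05 and ASNS at -0.36 ± 0.07, but 99.5% of the ASNS windows are shared with an overlapping lncRNA locus. PHGDH, the first enzyme of the serine pathway, had an adjusted p of 0.023 at log2 -0.13 ± 0.04, which became 0.193 without the other time-0 library, 0.0674 without 24 h replicate 1, 0.0629 without 24 h replicate 2 and 0.12 without 24 h replicate 3. CBS was the riser at log2 0.23 ± 0.06 (adjusted p = 0.0061, which became 0.127 without time-0 replicate 1 and 0.0532 without 24 h replicate 2), and 71.6% of its windows occur at another locus. Amino acid transporters fell in 11 of 17 genes and rose in 1 (median -0.27, with 1 higher and 9 lower without time-0 replicate 1). SLC7A11, the cystine carrier of the xCT exchanger (chr4:138164097-138242349), stood at 739 and 616 CPM at time 0 and 339, 364 and 349.8 CPM at 24 h (log2 -0.95 ± 0.06, adjusted p = 8.8e-10), and its partner subunit SLC3A2 was at log2 -0.54 ± 0.05. SLC7A5, the leucine carrier, was at log2 -0.56 ± 0.05, and SLC7A2, an arginine carrier, at 0.23 ± 0.05.

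Of the enzymes that charge tRNAs, cytosolic and mitochondrial sets were listed apart. Of 20 cytosolic tRNA synthetases, 12 fell (WARS1, GARS1, SARS1, EPRS1, IARS1, CARS1, AARS1, TARS1, NARS1, YARS1, MARS1 and LARS1) and none rose, with a summed level of 7653 and 7460 CPM at time 0 and 6179, 6359 and 6264 CPM at 24 h. The other 8 did not pass, and without time-0 replicate 1 the list had 11 lower. WARS1, for tryptophan, stood at 398 and 365 CPM at time 0 and 215, 236 and 229.7 CPM at 24 h (log2 -0.75 ± 0.05, adjusted p = 2.3e-13), and GARS1, for glycine, at 625 and 585 CPM at time 0 and 406, 441 and 417 CPM at 24 h (log2 -0.52 ± 0.04, adjusted p = 2.6e-10). Of 17 mitochondrial synthetases none passed in edgeR's test with or without time-0 replicate 1, and their sum was 870 and 863 CPM at time 0 and 860.0, 851 and 862 CPM at 24 h. The difference between these lists was not tested. In the translation machinery itself, of 80 cytosolic ribosomal proteins none passed in edgeR's test with or without time-0 replicate 1, with every log2 difference between -0.13 and 0.25 and a summed level of 87135 and 89645 CPM at time 0 and 87903, 88878 and 88179 CPM at 24 h. Mitochondrial ribosomal proteins rose in 6 and fell in 4 of 76 cases (1 higher and 3 lower without time-0 replicate 1, 10 and 3 without the other time-0 library and 3 and 3 without 24 h replicate 3). Initiation and elongation factors rose in 3 and fell in 8 of 44 (1 higher and 3 lower without time-0 replicate 1 and 6 and 9 without 12 h replicate 1), led by EIF1 at log2 -0.34 ± 0.04. Among 40 genes of ribosome biogenesis and RNA polymerase I, 4 rose and 3 fell (3 higher and 3 lower without time-0 replicate 1, 10 and 3 without the other time-0 library and 8 and 3 without 12 h replicate 1), with UBTF, which activates ribosomal DNA, at log2 0.38 ± 0.05 and GNL3, a nucleolar GTPase, at -0.26 ± 0.04.

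The cell cycle lists went in opposite directions. Licensing genes and the MCM helicase, which mark and open replication origins, rose in 14 of 24 cases and fell in none (7 called, median 0.25, against 7.82% of all genes that rose). Their sums were 605 and 661 CPM at time 0, 734, 810.0 and 777 CPM at 12 h and 809, 798 and 845 CPM at 24 h. MCM6 (chr2:135839626-135876443) stood at 25.5 and 29.7 CPM at time 0 and 49.6, 45.1 and 47.8 CPM at 24 h (log2 0.78 ± 0.07, adjusted p = 2.2e-10), MCM5 at 21.7 and 26.5 CPM at time 0 and 43.7, 38.8 and 41.8 CPM at 24 h (log2 0.78 ± 0.07, adjusted p = 8.8e-10) and MCM4 at 43.0 and 52.0 CPM at time 0 and 79.3, 78.8 and 88.5 CPM at 24 h (log2 0.79 ± 0.09, adjusted p = 5.2e-06). MCM10, which the helicase needs for firing, stood at 9.42 and 9.60 CPM at time 0 and 19.4, 17.5 and 19.3 CPM at 24 h (log2 0.98 ± 0.10, adjusted p = 9.6e-09), and GINS2 at 6.82 and 8.10 CPM at time 0 and 12.1, 11.6 and 12.4 CPM at 24 h (log2 0.69 ± 0.10, adjusted p = 3.1e-06). MCM2 and MCM3 were at log2 0.62 ± 0.06 and 0.64 ± 0.06. Not every member moved, as CDC6, a loader of the helicase, was at log2 -0.03 ± 0.06 (adjusted p = 0.83). Fork proteins and DNA polymerases rose in 14 of 31 cases (1 called, median 0.18). CLSPN, the checkpoint adaptor claspin, stood at 6.71 and 6.71 CPM at time 0 and 12.9, 12.99 and 15.3 CPM at 24 h (log2 1.03 ± 0.09, adjusted p = 1.2e-09), and PCNA, the sliding clamp, at 65.9 and 72.4 CPM at time 0 and 81.7, 82.8 and 89.2 CPM at 24 h (log2 0.29 ± 0.06, adjusted p = 0.00023). Without time-0 replicate 1, 10 licensing genes and 6 fork genes rose.

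Regulators around these genes rose in part. E2F1 stood at 19.0 and 21.1 CPM at time 0 and 29.4, 27.6 and 31.2 CPM at 24 h (log2 0.56 ± 0.07, adjusted p = 4.0e-07), E2F2 at 1.23 and 1.97 CPM at time 0 and 4.08, 3.60 and 4.25 CPM at 24 h (log2 1.33 ± 0.19, adjusted p = 4.5e-06) and CCNE2, a cyclin of the G1/S transition, at 3.85 and 4.65 CPM at time 0 and 8.48, 7.37 and 8.89 CPM at 24 h (log2 0.96 ± 0.13, adjusted p = 1.7e-06). CDC25A, the phosphatase that activates its kinase, was at log2 0.75 ± 0.10. In the list of E2F and RB factors 4 of 13 rose and 1 fell (3 higher and 0 lower without time-0 replicate 1), and in the list of G1 cyclins, kinases and inhibitors 6 of 16 rose and 3 fell (5 higher and 3 lower without time-0 replicate 1). CDKN1A, the inhibitor p21 and a p53 target (chr6:36676460-36687337), stood at 303 and 302 CPM at time 0 and 171, 170.5 and 175 CPM at 24 h (log2 -0.81 ± 0.05, adjusted p = 1.9e-13). Among 10 genes of DNA methylation and its maintenance 4 rose (3 higher and 0 lower without time-0 replicate 1). UHRF1, which recruits the maintenance methyltransferase to replicated DNA, stood at 11.8 and 12.5 CPM at time 0 and 29.0, 26.6 and 27.4 CPM at 24 h (log2 1.19 ± 0.07, adjusted p = 1.9e-13), with 20.7% of its windows shared with a pseudogene, and CDCA7 stood at 3.49 and 3.87 CPM at time 0 and 8.68, 7.22 and 8.29 CPM at 24 h (log2 1.13 ± 0.12, adjusted p = 2.1e-08). Homologous recombination, Fanconi and mismatch repair genes rose in 12 of 31 cases and fell in 1 (median 0.15, with 6 higher and 1 lower without time-0 replicate 1). XRCC3, a recombination factor, was at log2 0.64 ± 0.10. Deoxynucleotide synthesis rose in 3 and fell in 1 of 12 genes (2 higher and 1 lower without time-0 replicate 1). TK1, thymidine kinase, was at log2 0.41 ± 0.06, and at 0.27 without time-0 replicate 1, RRM2B, a p53-induced subunit of ribonucleotide reductase, at -0.43 ± 0.05, and TYMS at 0.08 ± 0.07 (adjusted p = 0.55).

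Mitotic genes fell in part, where 8.49% of all tested genes fell. Of 54 genes of the spindle and kinetochore 23 fell and 1 rose with none called (median -0.17), and 20 fell without time-0 replicate 1. Their sums were 2467 and 2584 CPM at time 0, 2547, 2640.0 and 2669 CPM at 12 h and 2215, 2190.0 and 2372 CPM at 24 h, and the median log2 difference at 12 h was 0.03. KIF2C, a microtubule-depolymerising kinesin, stood at 49.9 and 47.7 CPM at time 0 and 32.4, 34.4 and 37.3 CPM at 24 h (log2 -0.49 ± 0.06, adjusted p = 2.8e-07). CENPA stood at 12.5 and 13.9 CPM at time 0 and 9.57, 9.30 and 9.49 CPM at 24 h (log2 -0.48 ± 0.09, adjusted p = 0.00012) and KIF18A at 13.4 and 11.6 CPM at time 0 and 8.27, 9.26 and 9.58 CPM at 24 h (log2 -0.47 ± 0.09, adjusted p = 0.00029). AURKA, the centrosomal kinase, was at log2 -0.32 ± 0.06, against -0.02 ± 0.06 at 12 h. PLK1 was at log2 -0.25 ± 0.07, with overlapping groups, and an adjusted p of 0.0072 that became 0.317 without the other time-0 library, 0.0531 without 24 h replicate 1 and 0.0525 without 24 h replicate 2. MKI67, the proliferation antigen, was at -0.15 ± 0.05 (adjusted p = 0.053). MYBL2, the B-MYB factor that binds the MuvB complex, was the riser at log2 0.23 ± 0.06 (adjusted p = 0.0072, which became 0.492 without time-0 replicate 1), and its log2 difference was 0.38 without the other time-0 library and 0.15 after the GC and length correction.

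Targets of p53 fell in 19 of 25 cases and rose in 1 (2 called, median -0.33), and in 20 without time-0 replicate 1. MDM2, the ligase that degrades p53, stood at 196 and 183 CPM at time 0 and 125, 133 and 127 CPM at 24 h (log2 -0.56 ± 0.05, adjusted p = 5.5e-10), FAS, the death receptor, at 7.52 and 7.85 CPM at time 0 and 5.27, 4.52 and 4.51 CPM at 24 h (log2 -0.69 ± 0.11, adjusted p = 2.2e-05), and BBC3, the BH3 protein PUMA, at 17.7 and 20.3 CPM at time 0 and 13.3, 13.1 and 13.9 CPM at 24 h (log2 -0.50 ± 0.09, adjusted p = 9.8e-05). GDF15 and RRM2B, given above, are also induced by p53. PLK2 rose, from 25.3 and 24.8 CPM to 36.0, 34.4 and 37.5 CPM (log2 0.52 ± 0.06). Over all tested genes 8.49% fell and 7.82% rose.

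**Figure D5:**
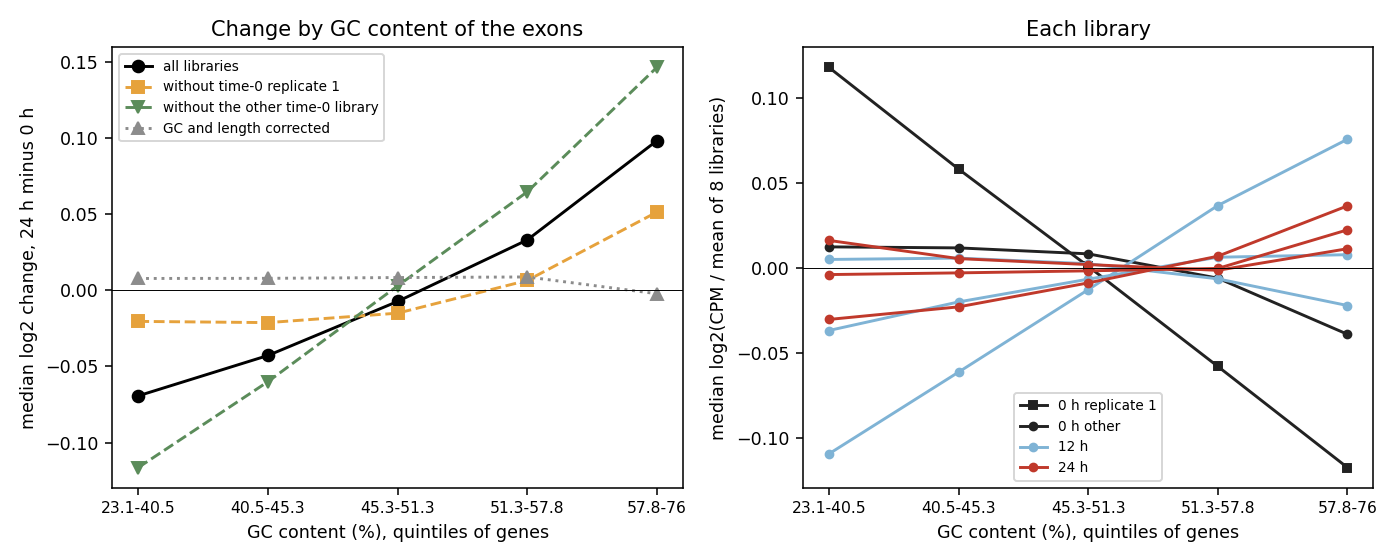
Left, the median log2 difference between 24 h and time 0 (vertical axis) in quintiles of genes by the GC content of their exons (horizontal axis, percent), with all libraries, without either time-0 library, and after correction for GC content and length. Right, the median log2 ratio of each library to the mean of all 8, where time-0 replicate 1 runs from 0.118 in the lowest quintile to -0.1174 in the highest and the 3 libraries at 24 h stay between -0.0303 and 0.0365.

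GC content moved with direction and with the time-0 libraries. Among genes of at least 1 CPM per kilobase, the share above a log2 difference of 0 rose over the quintiles by GC content, from 30.2% (GC of 23.1% to 40.5%) to 73.6% (57.8% to 76.0%), and the median difference from -0.07 to 0.10. Without time-0 replicate 1 these shares were 43.3% and 63.1%, and without the other time-0 library 23.3% and 78.5%. After correction of the offsets for GC content and length they were 52.3% and 49.3%. Under that correction the median of the licensing list, whose median GC content is 44.2%, moved from 0.25 to 0.29, that of the ER chaperones, at 48.0%, from -0.39 to -0.34, and that of the G1 list, at 51.8%, from 0.088 to 0.037.

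Energy metabolism moved in few genes: 13.4% of the 179 genes in its lists changed, against 16.3% of all genes. The share was 43.5% for glycolysis and 16.7% for hypoxia genes. None of the 13 messengers of the mitochondrial genome (nor any without time-0 replicate 1) and none of the 18 nuclear ATP synthase genes passed in edgeR's test (for ATP synthase 0 higher and 0 lower without time-0 replicate 1 and 2 and 0 without 12 h replicate 1), and complex I genes passed in 2 of 38 cases, NDUFB10 and NDUFB5. Both lost that on leaving out time-0 replicate 1 (adjusted p = 0.332 and 0.525) or any 24 h library (0.0834 to 0.0996 and 0.0526 to 0.173). CYC1 of complex III and COX7A2L of complex IV likewise did not pass without time-0 replicate 1 (0.29 and 0.105), and CYC1 neither without any 24 h library (0.0677 to 0.097) nor after the GC and length correction (0.787). Glycolysis rose in 8 and fell in 2 of 23 genes (median 0.12, with 6 higher and 1 lower without time-0 replicate 1, 5 and 2 without the other time-0 library, 5 and 1 without 24 h replicate 1 and 4 and 1 without 24 h replicate 3), and its summed level was 18607 and 17897 CPM at time 0, 21275, 20321 and 21295 CPM at 12 h and 19655, 19503 and 20781 CPM at 24 h. SLC16A1, a lactate carrier, fell, at log2 -0.35 ± 0.05. Of 21 genes of the tricarboxylic acid cycle, 2 rose and 2 fell (0 higher and 2 lower without time-0 replicate 1), IDH1 at log2 -0.46 ± 0.05 the clearest of them. Hypoxia genes rose in 1 and fell in 2 of 18 cases (2 higher and 0 lower without time-0 replicate 1 and 0 and 8 without the other time-0 library), and their median turned from -0.08 to 0.06 without time-0 replicate 1. VEGFA, the vascular growth factor, was at log2 -0.49 ± 0.10 with an adjusted p of 0.0087, which became 0.121 without time-0 replicate 1.

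Protein quality control outside the ER was covered by 6 lists, in which 23.3% of 159 genes changed. Of all genes 16.3% changed, with 21.7% between 1 and 10 CPM per kilobase and 30.7% between 10 and 100. For lysosomal genes the share was 17.1%. Cytosolic and mitochondrial heat shock proteins rose in 8 and fell in 3 of 25 cases (median 0.11, with 6 higher and 2 lower without time-0 replicate 1). HSPB1, a small heat shock protein, stood at 211 and 226 CPM at time 0 and 303, 297 and 292 CPM at 24 h (log2 0.44 ± 0.04, adjusted p = 9.0e-09), and HSP90AA1 at 1624 and 1674 CPM at time 0 and 1998, 2009 and 2054 CPM at 24 h (log2 0.29 ± 0.04, adjusted p = 3.3e-06). HSPH1 was at log2 0.41 ± 0.06. HSPA1B was at 0.37 ± 0.06, though 72.8% of its windows are shared, mostly with HSPA1A. The called faller was HSPA13, a microsomal member listed with this family, at 163 and 136 CPM at time 0 and 73, 83.6 and 85.8 CPM at 24 h (log2 -0.89 ± 0.07, adjusted p = 1.0e-07). Proteasome genes fell in 1 and rose in 0 of 31 cases (0 higher and 1 lower without time-0 replicate 1 and 0 and 4 without 12 h replicate 1). PSMD8 was that gene, with an adjusted p of 0.005, which became 0.0855 without the other time-0 library. Autophagy genes fell in 10 and rose in 2 of 37 cases (1 higher and 9 lower without time-0 replicate 1). WIPI1, which binds forming autophagosomes, stood at 18.5 and 13.4 CPM at time 0 and 8.95, 9.52 and 9.18 CPM at 24 h (log2 -0.79 ± 0.10, adjusted p = 5.5e-07), and MAP1LC3B, a marker of their membrane, at 104 and 89.2 CPM at time 0 and 61.1, 60.7 and 64.2 CPM at 24 h (log2 -0.64 ± 0.06, adjusted p = 6.3e-10). SQSTM1, an autophagy receptor, was at log2 0.20 ± 0.05 (adjusted p = 0.0019, which became 0.0626 without time-0 replicate 1). Lysosomal genes rose in 3 and fell in 3 of 35 cases (1 higher and 1 lower without time-0 replicate 1 or 24 h replicate 3, 6 and 5 without 12 h replicate 1 and 2 and 1 without 24 h replicate 1), with CTSH, a cathepsin, at log2 0.28 ± 0.05 and LIPA, the acid lipase, at -0.45 ± 0.06.

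Cholesterol synthesis and uptake fell in 13 and rose in 2 of 25 cases (none called, median -0.16 and at 12 h -0.02, with 1 higher and 8 lower without time-0 replicate 1). HMGCS1, a synthase early in the pathway, stood at 493 and 478 CPM at time 0 and 396, 405 and 405 CPM at 24 h (log2 -0.27 ± 0.05, adjusted p = 5.0e-05). TM7SF2, a sterol reductase, rose, at log2 0.43 ± 0.04. Fatty acid synthesis and desaturation rose in 6 and fell in 2 of 22 cases (4 higher and 1 lower without time-0 replicate 1). AMACR, a racemase of branched fatty acids overexpressed in prostate cancer, was at log2 0.55 ± 0.10 but shares 74.8% of its windows with read-through and other transcripts.

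Zinc genes moved on both sides of the membrane. Importers fell in 4 and rose in 2 of 11 cases (0 higher and 3 lower without time-0 replicate 1). SLC39A14 stood at 236 and 227 CPM at time 0 and 167, 176 and 176 CPM at 24 h (log2 -0.42 ± 0.05, adjusted p = 2.9e-08), and SLC39A8 was at log2 0.22 ± 0.05, with an adjusted p of 0.0039 that became 0.0606 without time-0 replicate 1. Exporters and metallothioneins rose in 5 and fell in 3 of 13 cases with 3 called (5 higher and 2 lower without time-0 replicate 1). SLC30A1, the exporter of the plasma membrane, stood at 11.9 and 10.5 CPM at time 0 and 22.2, 18.1 and 20.1 CPM at 24 h (log2 0.85 ± 0.08, adjusted p = 7.1e-09). MT1X was at log2 0.57 ± 0.13, and MT2A, at 25.4 and 25.3 CPM and 49.7, 31.5 and 40.5 CPM, had a wide spread at 24 h and did not pass (log2 0.68 ± 0.21, adjusted p = 0.099). SLC30A3, the third called gene, had 20 and 4 counts at time 0 and 34, 45 and 33 counts at 24 h (adjusted p = 0.031, which became 0.301 without the other time-0 library, 0.0837 without 24 h replicate 2 and 0.0722 without 24 h replicate 3), and a log2 difference of 2.93 without time-0 replicate 1. SLC30A7, an exporter of the Golgi, fell, at log2 -0.38 ± 0.06. Calcium pumps and store channels fell in 8 and rose in 2 of 20 cases (1 higher and 6 lower without time-0 replicate 1). ATP2C2, a calcium and manganese pump of the secretory pathway, stood at 63.1 and 56.7 CPM at time 0 and 42.9, 45.1 and 40.4 CPM at 24 h (log2 -0.48 ± 0.06, adjusted p = 2.8e-07), and ORAI1, the pore of store-operated entry, at 14.3 and 14.6 CPM at time 0 and 18.5, 17.5 and 19.1 CPM at 24 h (log2 0.35 ± 0.07, adjusted p = 0.00092). Polyamine genes changed in 4 of 12 cases (1 higher and 3 lower without time-0 replicate 1), with AMD1 at log2 0.27 ± 0.05 and SAT1 at -0.38 ± 0.05. NRF2 antioxidant genes fell in 5 and rose in 1 of 24 cases (0 higher and 3 lower without time-0 replicate 1 and 1 and 3 without 24 h replicate 1).

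The ErbB receptors are receptor tyrosine kinases, and the study examined ASPN as a ligand of HER3, the product of ERBB3. ERBB2 stood at 194 and 213 CPM at time 0 and 258, 251.2 and 250.1 CPM at 24 h (log2 0.31 ± 0.05, adjusted p = 9.8e-06) and ERBB3 at 176 and 181 CPM at time 0 and 173, 174 and 179 CPM at 24 h (log2 -0.03 ± 0.04, adjusted p = 0.78). EGFR stood at 191 and 167 CPM at time 0 and 161, 154 and 169 CPM at 24 h (log2 -0.15 ± 0.06, adjusted p = 0.083), and for EGFR and ERBB3 the groups overlapped. ERBB4 had 21 and 32 counts at time 0 and 36, 32 and 26 counts at 24 h and a log2 difference of 0.10 ± 0.43, so a change of that size could not be seen at this depth. RNF41, a ligase for ERBB3, was at log2 -0.30 ± 0.04. Of 15 genes in the ErbB list, 1 rose and 3 fell (1 higher and 2 lower without time-0 replicate 1). ERK feedback and immediate early genes rose in 3 and fell in 3 of 28 cases (0 higher and 3 lower without time-0 replicate 1 and 0 and 4 without 24 h replicate 3), with PHLDA1 called at log2 0.86 ± 0.22 (adjusted p = 0.0065, which became 0.0745 without time-0 replicate 1, 0.0513 without the other time-0 library and 0.0514 without 24 h replicate 3). KLF6 was at log2 -0.48 ± 0.09. PI3K, insulin receptor and FOXO genes rose in 4 and fell in 5 of 30 cases (2 higher and 2 lower without time-0 replicate 1, 4 and 3 without 24 h replicate 1 and 4 and 2 without 24 h replicate 3), with PIK3R3 at log2 0.22 ± 0.05.

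Other signalling lists moved in a minority of genes, where 7.82% of all tested genes rose and 8.49% fell. TGF-beta and BMP genes rose in 2 and fell in 6 of 26 cases (1 higher and 1 lower without time-0 replicate 1). SMAD6, an inhibitor of BMP signals, was at log2 0.52 ± 0.10. Wnt and Notch genes rose in 10 and fell in 2 of 36 cases (3 higher and 1 lower without time-0 replicate 1). NRARP, a Notch feedback gene, stood at 18.4 and 18.3 CPM at time 0 and 26.2, 25.8 and 27.4 CPM at 24 h (log2 0.53 ± 0.06, adjusted p = 3.6e-07), and NKD1, a Wnt feedback gene, at 4.77 and 4.61 CPM at time 0 and 8.01, 7.496 and 7.62 CPM at 24 h (log2 0.72 ± 0.10, adjusted p = 5.8e-06). LEF1, a Wnt effector, was at log2 0.75 ± 0.20, with an adjusted p of 0.0096 that became 0.294 without time-0 replicate 1 and 0.051 without 24 h replicate 1. MYC was at log2 0.15 ± 0.04, with an adjusted p of 0.012 that became 0.064 without time-0 replicate 1 and 0.0608 without 24 h replicate 3. Hippo genes rose in 3 and fell in 3 of 18 cases (2 higher and 1 lower without time-0 replicate 1), with TEAD4 at log2 0.43 ± 0.08 and AJUBA at -0.34 ± 0.05. Interferon-stimulated genes rose in 3 and fell in 1 of 30 cases, or 13.3% against 16.3% of all genes (0 higher and 1 lower without time-0 replicate 1 and 7 and 1 without 12 h replicate 1). In the list of NF-kB subunits and feedback targets 1 rose and 2 fell of 16 (1 higher and 1 lower without time-0 replicate 1), TNFAIP2 being called at log2 0.92 ± 0.19. Clock genes fell in 6 and rose in 2 of 19 cases (3 higher and 5 lower without time-0 replicate 1). HLF, an output factor of the clock, stood at 4.97 and 3.91 CPM at time 0 and 8.75, 8.66 and 9.88 CPM at 24 h (log2 1.03 ± 0.11, adjusted p = 5.9e-08), and NR1D2, the repressor REV-ERB beta, at 119 and 108 CPM at time 0 and 70.7, 76.8 and 75.6 CPM at 24 h (log2 -0.61 ± 0.05, adjusted p = 1.8e-10).

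Among prostate genes, the kallikreins and androgen-responsive genes rose in 10 and fell in 4 of 29 cases (none called, with 6 higher and 3 lower without time-0 replicate 1, 11 and 2 without the other time-0 library and 10 and 2 without 24 h replicate 1). UGT2B17, which inactivates androgens, stood at 121 and 109 CPM at time 0 and 148, 157 and 160.1 CPM at 24 h (log2 0.43 ± 0.05, adjusted p = 3.6e-07) and shares 10.6% of its windows with UGT2B15 and other genes. TRPM8, a cold-sensing channel, fell, at log2 -0.49 ± 0.10. KLK2 and TMPRSS2, a kallikrein and a serine protease of the luminal surface, lay at log2 0.24 ± 0.06 and 0.26 ± 0.06, each higher in all 3 libraries at 24 h, and each failed to pass without time-0 replicate 1 (adjusted p = 0.183 and 0.166). GATA2, a pioneer factor of androgen signalling, stood at 222 and 233 CPM at time 0 and 289.9, 288 and 291 CPM at 24 h (log2 0.35 ± 0.04, adjusted p = 5.7e-07). In the list of lineage factors 4 of 16 rose and 2 fell (1 higher and 0 lower without time-0 replicate 1). ETV1, the ETS factor activated by translocation in LNCaP, was at log2 -0.21 ± 0.05 (adjusted p = 0.0019, which became 0.0871 without time-0 replicate 1). Prostate surface antigens rose in 3 of 14 cases (2 higher and 0 lower without time-0 replicate 1, 0 and 0 without 24 h replicate 1 or 24 h replicate 2 and 1 and 0 without 24 h replicate 3), and the neuroendocrine list rose in 3 and fell in 1 of 7 (0 higher and 0 lower without time-0 replicate 1, the other time-0 library or 24 h replicate 1).

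Cell surface and shape genes changed in both directions. Integrins and their partners rose in 4 and fell in 4 of 27 cases (1 higher and 3 lower without time-0 replicate 1). ITGA3 stood at 5.17 and 5.01 CPM at time 0 and 9.30, 8.74 and 8.44 CPM at 24 h (log2 0.80 ± 0.11, adjusted p = 4.8e-06), and FERMT2, an integrin activator, at 23.9 and 23.4 CPM at time 0 and 16.9, 17.5 and 17.1 CPM at 24 h (log2 -0.46 ± 0.07, adjusted p = 1.2e-05). Epithelial junction and keratin genes rose in 8 and fell in 5 of 36 cases (1 higher and 3 lower without time-0 replicate 1, 8 and 8 without 12 h replicate 1 and 5 and 3 without 24 h replicate 1 or 24 h replicate 2). JUP, plakoglobin, was at log2 0.31 ± 0.05 and at 0.20 after the GC correction. ESRP1, an epithelial splicing factor, was the called gene at 226 and 207 CPM at time 0 and 128, 140.4 and 135 CPM at 24 h (log2 -0.69 ± 0.05, adjusted p = 7.3e-12). Actin and migration genes rose in 9 and fell in 2 of 45 cases (4 higher and 0 lower without time-0 replicate 1, 5 and 1 without 24 h replicate 2 and 4 and 2 without 24 h replicate 3), with RHOB at log2 0.25 ± 0.05. Cilium genes rose in 1 and fell in 6 of 35 cases (1 higher and 3 lower without time-0 replicate 1, 24 h replicate 1 or 24 h replicate 3), IFT46 standing at 13.3 and 12.1 CPM at time 0 and 19.5, 19.6 and 20.3 CPM at 24 h (log2 0.63 ± 0.07, adjusted p = 1.1e-07) and IFT172 at log2 -0.34 ± 0.06.

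Of 200 genes for splicing, nuclear pores, RNA decay, transcription and chromatin, 21 rose and 20 fell (10.5% and 10%, against 7.82% and 8.49% of all genes), and none was called by edgeR's test and the 1.5-fold limit. Their changed share was 20.5%, against 21.7% of all genes between 1 and 10 CPM per kilobase and 30.7% between 10 and 100. The counts were 1 higher and 10 lower without time-0 replicate 1, 10 and 17 without 24 h replicate 1, 13 and 14 without 24 h replicate 2 and 9 and 14 without 24 h replicate 3. NUP93, a scaffold nucleoporin, stood at 580.1 and 597 CPM at time 0 and 404, 399.6 and 398 CPM at 24 h (log2 -0.55 ± 0.04, adjusted p = 2.3e-11), PBRM1, a subunit of the PBAF remodeller, at 254 and 230.5 CPM at time 0 and 179, 185 and 183 CPM at 24 h (log2 -0.41 ± 0.05, adjusted p = 9.3e-08) and EXOSC6, a subunit of the RNA exosome, at 55.0 and 51.8 CPM at time 0 and 38.8, 40.3 and 37.5 CPM at 24 h (log2 -0.46 ± 0.06, adjusted p = 4.8e-07). SNRNP70, PTBP1, NUP210, SMG5, POLR2L and SMARCA4 rose by 0.17 to 0.23 on the log2 scale, but without time-0 replicate 1 their adjusted p lay between 0.0639 and 0.404. After the GC and length correction it was 0.0932 for SNRNP70, 0.169 for PTBP1 and 0.0661 for SMARCA4. Without 24 h replicate 1, POLR2L and SMARCA4 did not pass either (0.0768 and 0.0762).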

How the data were processed

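RNA sequencing (TruSeq mRNA libraries, paired-end, Illumina NovaSeq) measured 8 LNCaP libraries, 2 at 0 h, 3 at 12 h and 3 at 24 h of ASPN. The authors deposited raw counts of reads for each gene, made by trimming with Cutadapt, aligning to GRCh38 with STAR and counting GENCODE genes with featureCounts, with FastQC 0.11.9 for read quality. The authors left out a time-0 library for quality reasons. Strand, read-pair and multi-mapping options are not given in the sources used here, so overlapping genes and near-identical copies can share reads. Columns were matched to the labels by their time and number. A time-0 column numbered 3 has no counterpart among the time-0 labels and is called the other time-0 library. The number of unused columns was 0.

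Counts were tested with edgeR 4.0.16 in R 4.3.3 (quasi-likelihood F test, TMM, filterByExpr, 1 coefficient per time over all 8 libraries) and adjusted over 21071 genes by the Benjamini-Hochberg method. The limits were an adjusted p of 0.05 and a fold of 1.5. SE was derived from the log2 difference and the F statistic. A count of 0 allows up to 3 counts, or 0.031 to 0.0413 CPM, for counting error only, since duplicate reads could not be told from separate molecules. Replicates were checked for duplication: a chi-square per degree of freedom of 5.32 to 15.2 over 7 pairs exceeded sampling noise, so each library counts once. The procedure was tested on simulated data. Lengths, GC content and overlaps came from GENCODE release 44, which held 36395 of the 36474 genes. Coordinates are those of the deposited table. The 37 tested genes without a length were classed by CPM.

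The comparison, gene lists, motifs and naming rule were chosen with earlier results of these data known. The rule names, in each class, the 2 largest rises and 2 largest falls among changed genes without overlap between groups and with a proper symbol (under 1 CPM per kilobase also with 20 or more normalized counts on average), 3 rising and 3 falling lncRNAs and 1 pseudogene of each kind and direction averaging 100 or more, the 5 largest gains and losses in CPM, in each list the member with the smallest p in each direction, the ErbB receptors and ASPN. Other list members were chosen after their values were seen. Some genes that the rule would name are not reported here. Alternatives comprised other normalizations and filters, DESeq2 1.42.0, glmTreat, a fit to the compared libraries alone, protein-coding genes alone, thinned counts, GC and length correction, the replicate number as a block, other thresholds and leaving out each library.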

Additional observations from a re-analysis of the deposited data

How the results depend on the processing

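Of the counts, 3437 changed and 516 called genes (232 higher and 284 lower), those under RLE and upper-quartile normalization, no filter, thinning to the smallest library, the fit to 5 libraries, protein-coding genes alone and GC and length correction stayed within 1.5 times, and DESeq2 gave 3445 and 373. Requiring a mean of 100 normalized counts gave 322 called (143 higher and 179 lower). An adjusted p of 0.01 gave 2086 changed and 302 called (121 and 181), a fold of 2 gave 185 (91 and 94), and glmTreat, which tests against the fold of 1.5 itself, gave 47 (11 and 36). With each gene thinned to 100 counts, 646 changed. There PTBP1 stood at log2 -0.087, SLC39A8 at -0.0237 and ISG20 at 0.0076, each with its direction reversed and none passing. Of the 148 named genes that passed, 89 no longer did at that depth.

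Leaving out each library in turn gave 1597 to 4047 changed genes, 265 to 567 called, 120 to 258 called higher and 145 to 309 called lower. The low end came without time-0 replicate 1 (1597 changed and 265 called). Without it 43 of those 148 genes no longer passed, against 15 without the other time-0 library. Deviations of same-numbered libraries correlated at -0.147 to 0.101 over 7 pairs. Pairs with a time-0 library cannot decide on pairing, since 2 libraries deviate from their mean as mirror images. Same-numbered libraries of 12 h and 24 h correlated at 0.101, 0.0271 and 0.0301, and those with other numbers at -0.0782 to 0.0528. Pairing was therefore not excluded, and the main fit did not treat the numbers as pairs. A fit with the column number as a replicate block gave 2936 changed and 467 called genes (213 and 254), and 2806 and 466 with the other time-0 library as number 2. Depth limited the lowest class, where the median gene had 13 counts per library. The signalling medians of under 0.1 in size changed sign under some alternatives and carry no direction. The ErbB median, at -0.11, kept its sign and ran from -0.2084 to -0.0121 over the alternatives.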

Other observations

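The other lists gave few passing genes. HLA class I genes changed in 16.7% of cases, against 16.3% of all genes. In edgeR's test the nuclear genes of complexes II and III rose in 1 of 13 cases and complex IV fell in 1 of 12, and neither had any without time-0 replicate 1. Mitochondrial import rose in 1 and fell in 2 of 23 (0 higher and 2 lower without time-0 replicate 1 and 2 and 4 without the other time-0 library), and TIMM17A, a channel subunit of the inner membrane, stood at 163 and 154 CPM at time 0 and 118, 128 and 124 CPM at 24 h (log2 -0.36 ± 0.05, adjusted p = 1.4e-06). The TRiC chaperonin and prefoldin rose in 3 of 14 cases, of which none passed without time-0 replicate 1. V-ATPase genes rose in 3 and fell in 1 of 17 (0 higher and 1 lower without time-0 replicate 1 or 24 h replicate 2, 2 and 3 without the other time-0 library and 1 and 1 without 24 h replicate 1 or 24 h replicate 3), cohesin and condensin genes rose in 2 and fell in 2 of 19 (0 higher and 2 lower without time-0 replicate 1), and NCAPD2, a condensin subunit, was at log2 -0.20 ± 0.05. Fatty acid oxidation and peroxisome genes rose in 4 and fell in 3 of 39, or 17.9% against 16.3% of all genes (1 higher and 1 lower without time-0 replicate 1 and 7 and 4 without 12 h replicate 1), with ETFDH, which passes electrons to ubiquinone, at log2 -0.27 ± 0.05. HLA class I genes rose in 2 and fell in 1 of 18 (1 higher and 0 lower without time-0 replicate 1), with TAPBP, the tapasin of peptide loading, at log2 0.30 ± 0.05.

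Families defined by symbol also held moderate numbers of changed genes. ZNF genes changed in 14.6% of cases, RAB GTPases in 26.3%, kinesins in 23.1% and histone genes in 6.56%, against 16.3% of all genes. That share takes in scarce genes, and it was 21.7% between 1 and 10 CPM per kilobase and 30.7% between 10 and 100. Solute carriers (SLC symbols) changed in 87 of 295 cases (29.5%, against 16.3% of all genes), 50 higher and 37 lower, with 12 called (23 higher and 26 lower without time-0 replicate 1). ZNF genes, mostly zinc finger repressors, rose in 38 and fell in 27 of 445 (16 higher and 9 lower without time-0 replicate 1, 24 and 14 without 24 h replicate 1, 30 and 16 without 24 h replicate 2 and 26 and 16 without 24 h replicate 3), and RAB GTPases rose in 7 and fell in 13 of 76 (2 higher and 8 lower without time-0 replicate 1). Kinesins rose in 1 and fell in 8 of 39 (1 higher and 6 lower without time-0 replicate 1 and 1 and 4 without 24 h replicate 2), and histone genes rose in 2 and fell in 2 of 61 (1 higher and 2 lower without time-0 replicate 1). Length moved with the number of changed genes. Of genes of at least 1 CPM per kilobase, 261 of 2403 changed in the shortest quintile by exon length and 706 of 2401 in the longest. At an equal level per kilobase a longer gene has more counts, so depth moved with length. The called share ran the other way, at 2.21% and 0.875%, as did the median log2 size, at 0.1319 and 0.0985. There were 137 higher and 124 lower in the shortest quintile and 269 and 437 in the longest. Without 24 h replicate 2 the shortest had 101 and 103 and the longest 206 and 332. Without 24 h replicate 3 the shortest had 100 and 106 and the longest 200 and 342. The small excess of rising genes in the shortest quintile thus did not hold.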
